A study of Mus musculus with 20 samples.

Results

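The B cell genes Tnfrsf13c, Cxcr5, Btla, Mzb1, Ly6d and Prr5, with roles in survival, homing and secretion, were followed in peripheral blood RNA of mice that lacked the tyrosine kinase Lyn, with or without the transcription factor Irf5. They were 6 of the 9228 genes listed, and each was found as 1 row. The genes were chosen by their higher level in Irf5-deficient than in Lyn-/- blood and by a level in Lyn-/- blood below that of WT, so the values behind that choice are given as a description, without a test. The rule of that choice states no size of difference, so whether a gene stood near its edge is not known. All 6 passed the filter on low values, which kept 8696 genes with at least 1 RPKM (reads scaled to transcript length and to the mapped reads of the library) in at least 4 of the 20 libraries. WT blood alone would have carried each of them past that filter.

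The 20 mice were females on a C57BL/6 background aged 22 to 23 weeks, 4 for each of 5 genotypes. The genotypes were Lyn-/-Irf5-/- (both genes lost), Lyn-/-Irf5+/- (1 copy of Irf5 left), Lyn-/-Ifnar1-/- (the type I interferon receptor chain lost together with Lyn), Lyn-/- and WT. No mouse received a drug, all alleles were lost in the whole body and not in B cells alone, and the Irf5 or Ifnar1 alleles were carried only on the Lyn-/- background, so these data hold no mouse that lacked Irf5 or Ifnar1 with Lyn intact. WT mice were bought and the mutant strains were bred by the study, so genotype and origin of the mice cannot be told apart in any comparison with WT. Each library was made from the blood of 1 mouse as the labels give it, and no label gives a batch. The records of the Lyn-/-Irf5+/- libraries are numbered apart from those of all other libraries. This genotype and its set of records therefore cannot be told apart.

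Lyn holds B cells and myeloid cells in check through inhibitory receptors, and mice without it develop a lupus-like disease. IRF5 is a transcription factor that acts below Toll-like receptors and the adaptor MyD88, and IFNAR1 is a chain of the receptor for type I interferon. Mature B cells circulate between blood and lymphoid follicles, live only while they receive survival signals, and turn into antibody-secreting cells when activated. The 6 genes touch these steps: Tnfrsf13c encodes the BAFF receptor, on whose signal the survival of mature B cells depends. Cxcr5 encodes the receptor for the chemokine CXCL13, which draws B cells and follicular helper T cells into follicles. Btla encodes an inhibitory receptor of B and T cells that binds the TNF receptor family member HVEM. Mzb1 encodes a protein of the endoplasmic reticulum that helps the assembly and secretion of antibody in marginal zone B cells and plasma cells. Ly6d encodes a small lipid-anchored surface protein that marks lymphoid progenitors committed to the B lineage and the B cells made from them. Prr5, also called Protor-1, encodes a subunit of mTOR complex 2, a kinase complex that acts on AKT and SGK1.

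In the GRCm38.p6 assembly of RefSeq, 3 of the 6 genes lie on chromosome 15. These are Ly6d at chr15:74762056-74763567, Tnfrsf13c at chr15:82221742-82224380 and Prr5 at chr15:84663206-84706409. Cxcr5 lies at chr9:44511787-44526444 and Btla at chr16:45223705-45252895. To set the members beside factors known from B cells and beside the IRF family, the 250 bases before a RefSeq start were searched on both strands for 5 short motifs. These were CCCNNGGG (EBF1), ATGCAAAT (octamer), CAGGTG (E-box), AGGAAGT (ETS) and GAAANNGAA (IRF). The search covered 3 of the 6 genes, with 4 windows, and did not cover Cxcr5, Ly6d or Mzb1. Of the 32851 windows searched, 11.8% held the EBF1 letters, 1.6% the octamer, 17.2% the E-box, 7.69% the ETS letters and 7.13% the IRF letters. No motif was shared between 2 of the 3 genes, and no window held the octamer.

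The 3 stretches with a match are shown 5′ to 3′ on the strand of the gene, with the match in capitals. The Tnfrsf13c stretch (minus strand, chr15:82224381-82224630) ends at the base before the start and holds 1 E-box match, 96 to 91 bases before it. The Prr5 stretch (plus strand, chr15:84662956-84663205) ends at the base before the more upstream of its 2 listed starts and holds 1 EBF1 match, 239 to 232 bases before it, while the window of the other start held no match. For Btla only the 30 bases around the IRF match are shown (plus strand, chr16:45224117-45224146). This match lay 210 to 202 bases before the listed start, and an ETS match lay 17 to 11 bases before it. The gene span of Btla given above begins upstream of this window, so both matches lie inside that span.
Tnfrsf13c: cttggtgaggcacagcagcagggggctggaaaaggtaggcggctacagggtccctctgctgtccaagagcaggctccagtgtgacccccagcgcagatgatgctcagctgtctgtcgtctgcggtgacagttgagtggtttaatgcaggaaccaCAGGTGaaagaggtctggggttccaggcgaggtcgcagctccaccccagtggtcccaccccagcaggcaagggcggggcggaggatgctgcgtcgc
Prr5: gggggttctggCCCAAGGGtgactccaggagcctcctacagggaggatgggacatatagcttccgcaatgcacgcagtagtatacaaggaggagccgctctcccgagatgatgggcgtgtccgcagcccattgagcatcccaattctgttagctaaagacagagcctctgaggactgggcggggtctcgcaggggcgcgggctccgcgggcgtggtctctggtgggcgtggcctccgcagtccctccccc
Btla: cagagggcttGAAAGAGAAcagcaggtcgg
A match of these letters is a description of the sequence and no record of binding.

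Lyn was at 7.43 to 11.4 RPKM in Lyn-/-Irf5-/-, 7.71 to 13.8 in Lyn-/-Irf5+/-, 2.42 to 10.1 in Lyn-/-Ifnar1-/- and 8.40 to 11.9 in Lyn-/- mice, against 32.5 to 36.9 RPKM in WT mice. Irf5 was at 38.2 ± 2.33 RPKM in Lyn-/-Irf5-/-, 28.7 ± 3.43 in Lyn-/-Irf5+/- and 33.3 ± 5.35 in Lyn-/- mice, against 20.9 ± 0.641 RPKM in WT mice, and Ifnar1 at 8.50 ± 2.15 RPKM in Lyn-/-Ifnar1-/- and 5.39 ± 0.523 in Lyn-/- mice, against 5.75 ± 0.462 RPKM in WT mice (SD, n = 4 each). Both targeted genes thus averaged above WT in the libraries labelled as lacking them. Reads outside a deleted part still count for a gene, the values per gene do not show which part the reads came from, and these genotypes rest on the labels. The whole reads behind the RPKM values could be recovered for 9227 of the 9228 genes and summed to between 1020207 and 2414393 per mouse. One library stood apart in depth: the median gene held 11 reads in Lyn-/-Ifnar1-/- mouse 3, against 17 to 52 reads in the other libraries, and the differences of the members in this genotype are given with and without it. Blood is a mixture of cells, and in bulk RNA fewer B cells and less RNA of a gene per B cell cannot be told apart. Ms4a1, Cd79a and Cd79b, which define B cells, were above 0 in every mouse, with Ms4a1 lowest at 4.03 RPKM in 1 Lyn-/- mouse.

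Tnfrsf13c, the survival receptor, had the lowest share of its WT level in Irf5-deficient blood among the 6 genes. It was at 2.35, 5.74, 2.26 and 3.40 RPKM in the 4 Lyn-/-Irf5-/- mice and at 4.34, 2.08, 3.92 and 3.495 RPKM in the 4 Lyn-/-Irf5+/- mice, against 1.16, 1.15, 1.27 and 0.917 RPKM in the 4 Lyn-/- mice. Every Irf5-deficient mouse was above every Lyn-/- mouse, and the 2 Irf5-deficient genotypes overlapped. The Lyn-/-Ifnar1-/- mice were at 1.65, 4.51, 1.95 and 3.21 RPKM, and the WT mice at 25.1, 16.1, 23.0 and 21.2 RPKM. All 16 Lyn-deficient mice were far below the lowest WT mouse. The genotype means were 16.1%, 16.2%, 13.3% and 5.26% of the WT mean in Lyn-/-Irf5-/-, Lyn-/-Irf5+/-, Lyn-/-Ifnar1-/- and Lyn-/- mice. The value in Lyn-/- blood rested on 4 to 8 reads per mouse, against 105 to 216 in WT.

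Cxcr5, the follicle homing receptor, was at 9.37, 17.9, 12.9 and 11.2 RPKM in Lyn-/-Irf5-/- mice and at 11.2, 10.4, 8.82 and 8.78 RPKM in Lyn-/-Irf5+/- mice, against 5.16, 2.69, 3.96 and 4.51 RPKM in Lyn-/- mice. Lyn-/-Ifnar1-/- mice were at 7.89, 8.92, 5.69 and 10.6 RPKM, and WT mice at 40.2, 29.9, 36.5 and 34.3 RPKM. The order of the means was WT, Lyn-/-Irf5-/-, Lyn-/-Irf5+/-, Lyn-/-Ifnar1-/- and Lyn-/-, in which the 3 genotypes in the middle overlapped as neighbours while WT and Lyn-/- each stood clear. The mean of Lyn-/-Irf5-/- mice, 12.8 ± 3.65 RPKM (SD, n = 4), was 36.5% of the WT mean, and that of Lyn-/- mice, 4.08 ± 1.05 RPKM (SD, n = 4), was 11.6% of it.

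Btla, the inhibitory receptor, was the member whose 5 genotypes did not overlap anywhere in their order. It was at 11.5, 11.7, 10.3 and 10.02 RPKM in Lyn-/-Irf5-/- mice and at 12.6, 15.8, 21.8 and 17.2 RPKM in Lyn-/-Irf5+/- mice, against 5.54, 5.58, 4.27 and 4.46 RPKM in Lyn-/- mice. Lyn-/-Ifnar1-/- mice were at 7.56, 8.50, 6.32 and 8.59 RPKM, between Lyn-/-Irf5-/- and Lyn-/- blood. WT mice were at 39.4, 24.0, 22.7 and 28.4 RPKM, and the lowest of them lay just above the highest Lyn-/-Irf5+/- mouse. The mice without Irf5 averaged 37.9% of the WT mean and those with 1 copy 58.7%.

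Mzb1, the secretory gene, came closest to its WT level. It was at 7.29, 9.53, 13.5 and 11.9 RPKM in Lyn-/-Irf5-/- mice and at 8.27, 14.99, 15.1 and 13.9 RPKM in Lyn-/-Irf5+/- mice, against 4.56, 2.91, 2.67 and 1.45 RPKM in Lyn-/- mice. WT mice were at 19.8, 15.1, 17.6 and 16.3 RPKM, so that the highest Lyn-/-Irf5+/- mouse reached the lowest WT mouse. The means were 61.4% of WT in Lyn-/-Irf5-/- and 76.0% in Lyn-/-Irf5+/- mice, 39.0% in Lyn-/-Ifnar1-/- mice (5.79, 7.59, 6.16 and 7.28 RPKM) and 16.8% in Lyn-/- mice. Mouse 4 of Lyn-/- carried 3 reads of Mzb1, so its value has wide counting error.

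Ly6d, the B lineage surface protein, had the highest level of the 6 per kilobase of transcript in every genotype. It was at 32.4, 52.4, 40.9 and 44.7 RPKM in Lyn-/-Irf5-/- mice and at 40.4, 35.2, 43.3 and 37.0 RPKM in Lyn-/-Irf5+/- mice, against 11.6, 14.0, 17.0 and 16.4 RPKM in Lyn-/- mice. WT mice were at 217, 131, 165 and 212 RPKM, so that the Irf5-deficient means were 23.5% and 21.5% of WT in Lyn-/-Irf5-/- and Lyn-/-Irf5+/- mice. Lyn-/-Ifnar1-/- mice were spread from 6.73 RPKM in mouse 3, on 5 reads, to 34.5 RPKM, and overlapped Lyn-/- mice. Without mouse 3, the other 3 Lyn-/-Ifnar1-/- mice were at 24.3 RPKM or more and above every Lyn-/- mouse.

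Prr5, the mTOR complex 2 subunit, was the lowest member in every genotype. It was at 1.05, 2.98, 2.22 and 2.19 RPKM in Lyn-/-Irf5-/- mice and at 1.83, 1.54, 2.38 and 2.02 RPKM in Lyn-/-Irf5+/- mice, against 0.450, 0.480, 0.376 and 0 RPKM in Lyn-/- mice. WT mice were at 7.496, 5.56, 5.80 and 6.42 RPKM. The 4 Lyn-/- values rested on 3, 2, 2 and 0 reads, and the 0 in mouse 4 allows up to 0.714 RPKM (the worth of 3 reads in that library, counting error only). Lyn-/-Ifnar1-/- mice were at 1.14, 1.21, 0 and 1.03 RPKM, where the 0 in mouse 3 allows up to 1.52 RPKM, above all the other mice of that genotype. The level of Prr5 in Lyn-/- blood was thus at the limit of what these libraries can measure.

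**Figure D1:**
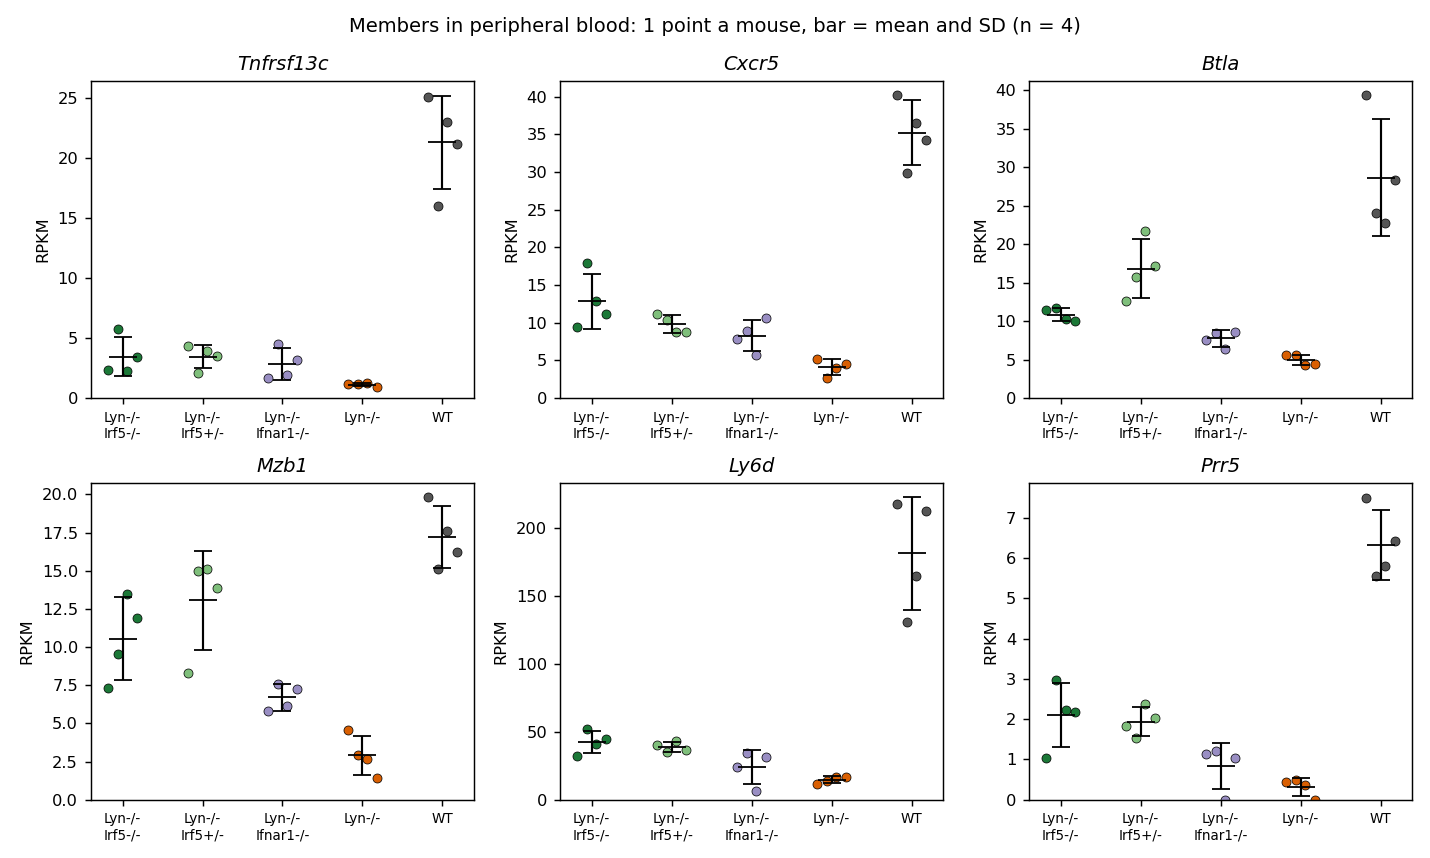
RPKM of each of the 6 genes (vertical axes from 0) in each mouse (points) by genotype, with bars for the mean and SD of 4 mice. Every WT point lies above the other genotypes except in the Mzb1 panel, where the highest Lyn-/-Irf5+/- mouse (15.1 RPKM) meets the lowest WT mouse (15.1 RPKM).

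In Lyn-/-Irf5-/- against Lyn-/- blood, all mice of the first genotype were above all mice of the second for 6 of 6 members, a pattern that 9.63% of the 8696 genes shared. The difference of mean log2(RPKM + 0.5) ran from 1.06 ± 0.18 (SE) for Btla to 1.75 ± 0.24 for Mzb1, with a median of 1.51, beside a median of 0.06 over all genes. In Lyn-/-Irf5+/- against Lyn-/- blood it was again 6 of 6 members, against 7.42% of all genes, with differences from 1.19 for Cxcr5 to 2.04 for Mzb1 and a median of 1.49. These counts are what the members were chosen by, and nothing is read from them. Low levels make the differences of Prr5 depend on the 0.5 RPKM added before the logarithm: 1.65 in Lyn-/-Irf5-/- against Lyn-/- became 2.57 with 0.1 RPKM added.

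In Lyn-/- against WT blood, 6 of 6 members were lower in every mouse, against 16.7% of all genes, with differences from -3.74 for Tnfrsf13c to -2.39 for Btla. Against WT, 6 of 6 members were also lower in every Lyn-/-Irf5-/- mouse (12.3% of all genes) and 5 of 6 in every Lyn-/-Irf5+/- mouse (10.6% of all genes), Mzb1 being the one that overlapped. The higher level in Irf5-deficient blood was therefore below that of WT blood for each of the 6 genes by the mean, and the remaining difference ran from -2.54 for Tnfrsf13c to -0.71 for Mzb1 in Lyn-/-Irf5-/- mice.

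**Figure D2:**
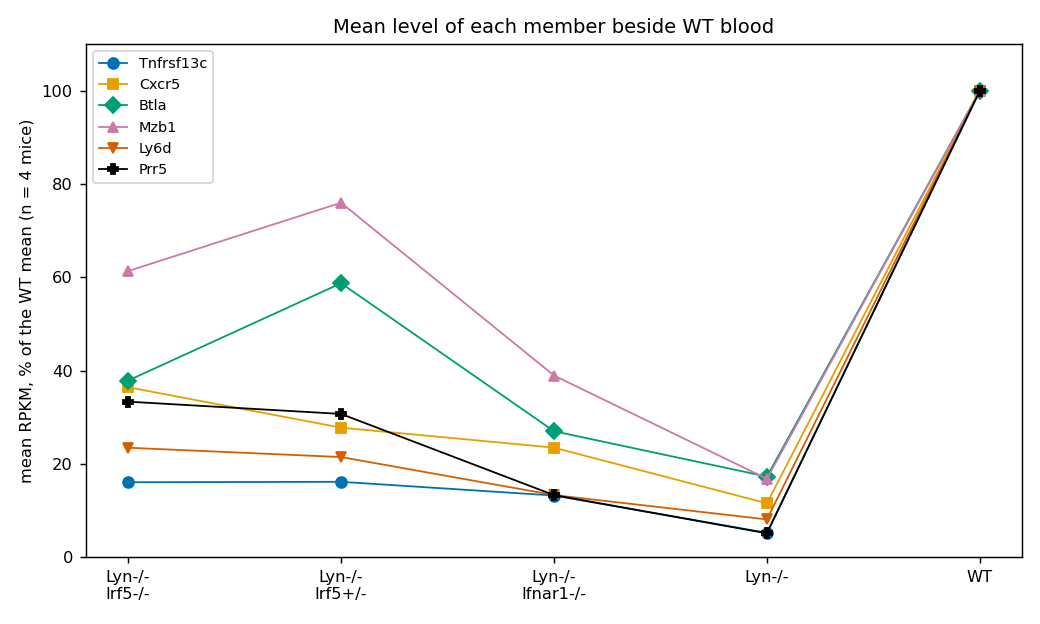
Mean RPKM of each gene as a percentage of its WT mean (vertical axis, n = 4 mice a genotype) in the 5 genotypes. Mzb1 lies highest in every Lyn-deficient genotype but Lyn-/-, where Btla (17.3%) and Mzb1 (16.8%) meet, and Tnfrsf13c lies lowest in both Irf5-deficient genotypes, at 16.1% and 16.2%.

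Whether loss of the type I interferon receptor left the same genes low was tested against WT blood. The means of this contrast use neither Irf5-deficient nor Lyn-/- libraries. Its WT libraries had served in choosing the members, which were taken for a higher level in WT than in Lyn-/- blood. That choice favours a lower level here, so the p-values and counts are no independent support. The error was estimated over all 20 libraries. All 6 fell in Lyn-/-Ifnar1-/- blood (limma on log2(RPKM + 0.5), two-sided, Benjamini-Hochberg over 8696 genes, adjusted p from 6.24e-07 to 0.000885), against 9.61% of all genes called lower and 11.7% called higher. All mice were lower than all WT mice for 6 of 6 members and for 11.8% of all genes. Ly6d differed by -3.07 (95% interval -3.77 to -2.38), Tnfrsf13c by -2.78 (-3.35 to -2.21), Prr5 by -2.49 (-3.16 to -1.81), Cxcr5 by -2.05 (-2.48 to -1.61), Btla by -1.80 (-2.17 to -1.42) and Mzb1 by -1.30 (-1.81 to -0.79). Without mouse 3 these 6 differences ran from -2.66 for Tnfrsf13c to -1.26 for Mzb1, with limma adjusted p no higher than 0.00237.

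In Lyn-/-Ifnar1-/- against Lyn-/- blood, 4 of 6 members were higher in every mouse (Tnfrsf13c, Cxcr5, Btla and Mzb1), against 4.17% of all genes. Without Lyn-/-Ifnar1-/- mouse 3 it was 6 of 6. Fewer mice separate more easily for any gene, and no share over all genes was computed for that setting. The differences ran from 0.49 for Ly6d to 1.16 for Mzb1. Without mouse 3, Ly6d stood at 1.002, Prr5 at 1.02 in place of 0.60, and Btla was the lowest at 0.68. No test is given, since the Lyn-/- libraries served in choosing the members. The same Lyn-/- mice are the controls in all of these comparisons, so their values are not independent of each other.

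The dose of Irf5 was compared within the Irf5-deficient mice, where genotype and set of records cannot be told apart. Between Lyn-/-Irf5-/- and Lyn-/-Irf5+/- blood, 0 of 6 members passed the test (limma adjusted p from 0.504 to 0.976), and 0% of the 8696 genes were called higher and 0% lower. At an unadjusted p under 0.05, 1 of the 6 members (Btla) and 714 genes were counted by limma, and limma-voom on the recovered reads also called 0 genes, with 751 at an unadjusted p under 0.05. Fitted on these 2 genotypes alone, limma called 19 genes higher and 102 lower, with 0 of 6 members among them. Both groups had served in choosing the members, though not the difference between them. A choice of genes high in Irf5-deficient blood can favour a small difference between these groups, so nothing is read from the lack of calls. Btla differed by -0.59 (95% interval -0.96 to -0.21), Mzb1 by -0.29 (-0.80 to 0.21), Tnfrsf13c by -0.05 (-0.62 to 0.52), Prr5 by 0.05 (-0.63 to 0.72), Ly6d by 0.11 (-0.59 to 0.81) and Cxcr5 by 0.34 (-0.09 to 0.78). These intervals leave room for differences of over 0.5 in either direction for Tnfrsf13c, Prr5 and Ly6d, so a like level was not shown. With every library scaled to the same RPKM sum, the difference of Btla was 0.18, of the other sign.

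The 6 genes moved beside other B cell transcripts. Of 30 markers of B cells listed from textbook knowledge, none of them a member, 28 were in the table and tested. In Lyn-/-Irf5-/- against Lyn-/- blood 16 rose and 3 fell, beside 5.36% and 8.58% of all genes, with a median of 0.89. Ms4a1, which encodes CD20, was at 18.7 ± 3.26 RPKM in Lyn-/-Irf5-/- blood, against 5.05 ± 1.25 RPKM in Lyn-/- blood (mean ± SD, n = 4, limma adjusted p = 1.11e-05). Cd79a, a chain of the B cell receptor, was at 58.2 ± 10.2 RPKM in Lyn-/-Irf5-/- blood, against 21.2 ± 4.88 RPKM in Lyn-/- blood (mean ± SD, n = 4, limma adjusted p = 0.00066). The 3 that fell were Cd24a, Pou2f2 and Cd180, named here after their values were seen, and erythroid cells also carry Cd24a. In Lyn-/-Irf5+/- against Lyn-/- blood 18 markers rose and 1 fell (Pou2f2), beside 6.12% and 8.46% of all genes, with a median of 1.03. With libraries scaled to the same RPKM sum, that count was 1 higher and 1 lower.

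The same markers were low in the blood of all Lyn-deficient genotypes. In Lyn-/- against WT blood 25 of 28 fell and 1 rose, beside 15.5% and 17.1% of all genes, with a median of -2.81, and in Lyn-/-Ifnar1-/- against WT blood 25 fell and 0 rose (25 and 1 without mouse 3), with a median of -2.01. In Lyn-/-Ifnar1-/- against Lyn-/- blood 9 rose and 0 fell, beside 2.74% and 3.96% of all genes, with a median of 0.65. That last count was 20 without Lyn-/-Ifnar1-/- mouse 3, 5 without mouse 4 of the same genotype, 5 without Lyn-/- mouse 4 and 17 (16 up, 1 down) without mice 3 and 4 of Lyn-/-Ifnar1-/-, a setting chosen after seeing the data. The sum over all 28 markers, most of it Cd24a, was 1292 to 1818 RPKM in Lyn-/-Irf5-/-, 1777 to 3253 in Lyn-/-Irf5+/-, 1446 to 6789 in Lyn-/-Ifnar1-/- and 2343 to 5707 in Lyn-/- mice, against 2562 to 2873 RPKM in WT mice, so that it was lower in every Lyn-/-Irf5-/- mouse than in any Lyn-/- mouse. Summed over the 27 markers other than Cd24a (a split made after seeing the values), the level was 257 to 389 RPKM in Lyn-/-Irf5-/-, 287 to 325 in Lyn-/-Irf5+/-, 148 to 292 in Lyn-/-Ifnar1-/- and 123 to 169 in Lyn-/- mice, against 859 to 1160 RPKM in WT mice.

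**Figure D3:**
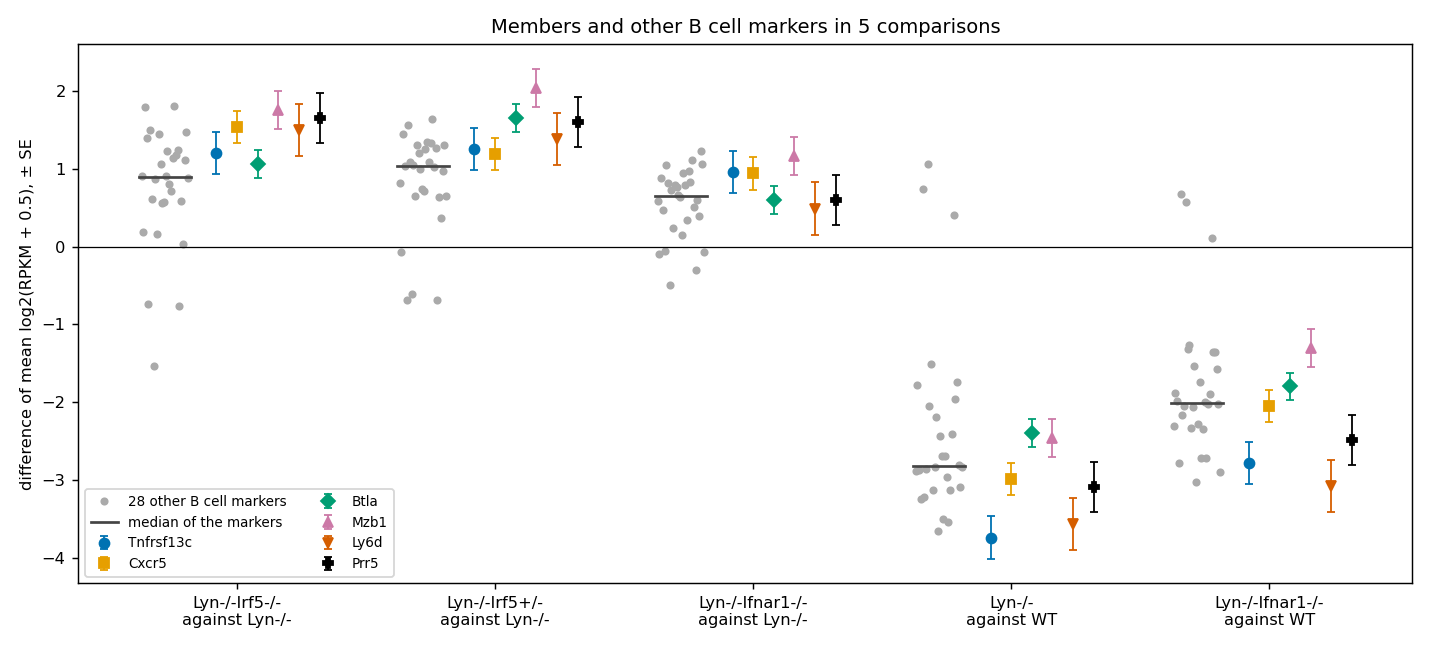
Difference of mean log2(RPKM + 0.5) between genotypes (vertical axis) in 5 comparisons, with coloured symbols and SE bars for the 6 members, grey points for 28 other B cell markers and a line at their median. The members run from 1.06 to 2.04 in the comparisons of Irf5-deficient with Lyn-/- blood, for which they were chosen, and the markers Cd24a, Pou2f2 and Cd180 lie below 0 there.

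Taking the median of the 28 markers in the same mouse as a yardstick, which no scaling of a library can alter by much, the members fell into different patterns. The distance of a member from that median, on log2(RPKM + 0.5), was compared between genotypes without a test. The members were chosen for a higher level in Irf5-deficient than in Lyn-/- blood, and the markers were listed from textbook knowledge. That choice favours a larger distance in Irf5-deficient than in Lyn-/- mice, so the distances are only a description. No share of other genes with such distances was computed. Tnfrsf13c lay below the marker median in every Lyn-deficient mouse and around it in WT mice (-0.20 to 0.29). Its distance was -0.84 ± 0.28 in Lyn-/-Irf5-/-, -0.99 ± 0.28 in Lyn-/-Irf5+/-, -1.003 ± 0.47 in Lyn-/-Ifnar1-/- and -1.21 ± 0.16 in Lyn-/- mice (SD, n = 4 each), and none of these 16 mice overlapped WT. The Irf5-deficient mice overlapped Lyn-/- mice by this measure, unlike in RPKM.

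Mzb1 went the other way. It lay above the marker median in every Irf5-deficient mouse, at 0.24 to 1.31 in Lyn-/-Irf5-/- and 0.05 to 1.18 in Lyn-/-Irf5+/- mice, and below it in every WT mouse, at -0.43 to -0.09. Lyn-/-Ifnar1-/- mice were also above WT, at -0.07 to 0.67 (-0.07 to 0.17 without mouse 3), while Lyn-/- mice, at -0.74 to 0.31, overlapped WT and each of the other genotypes.

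Cxcr5 was 0.97 above the median in Lyn-/-Irf5-/- mice and 0.26 above it in Lyn-/- mice, without overlap, and at 0.73 in WT mice. In Lyn-/-Irf5+/- mice it was 0.418 above the median (0.169 to 0.674) and overlapped Lyn-/- mice (-0.395 to 0.627). Lyn-/-Ifnar1-/- mice, at 0.445, overlapped Lyn-/- mice too. Btla was 0.77 above the median in Lyn-/-Irf5-/- mice, 1.15 in Lyn-/-Irf5+/- mice, 0.38 in Lyn-/-Ifnar1-/- mice, 0.54 in Lyn-/- mice and 0.41 in WT mice. Ly6d was 2.68 above it in Lyn-/-Irf5-/-, 2.36 in Lyn-/-Irf5+/-, 1.74 in Lyn-/-Ifnar1-/- and 2.01 in Lyn-/- mice, against 3.05 in WT mice. Lyn-/-Ifnar1-/- mouse 3 was at 0.79 and the other 3 mice of that genotype were at 1.94 to 2.29. The distance of Prr5 was -1.41 in Lyn-/-Irf5-/-, -1.66 in Lyn-/-Irf5+/-, -2.38 in Lyn-/-Ifnar1-/- and -2.23 in Lyn-/- mice, against -1.66 in WT mice, the Lyn-/- value being set in part by the 0.5 RPKM added to levels near 0.

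**Figure D4:**
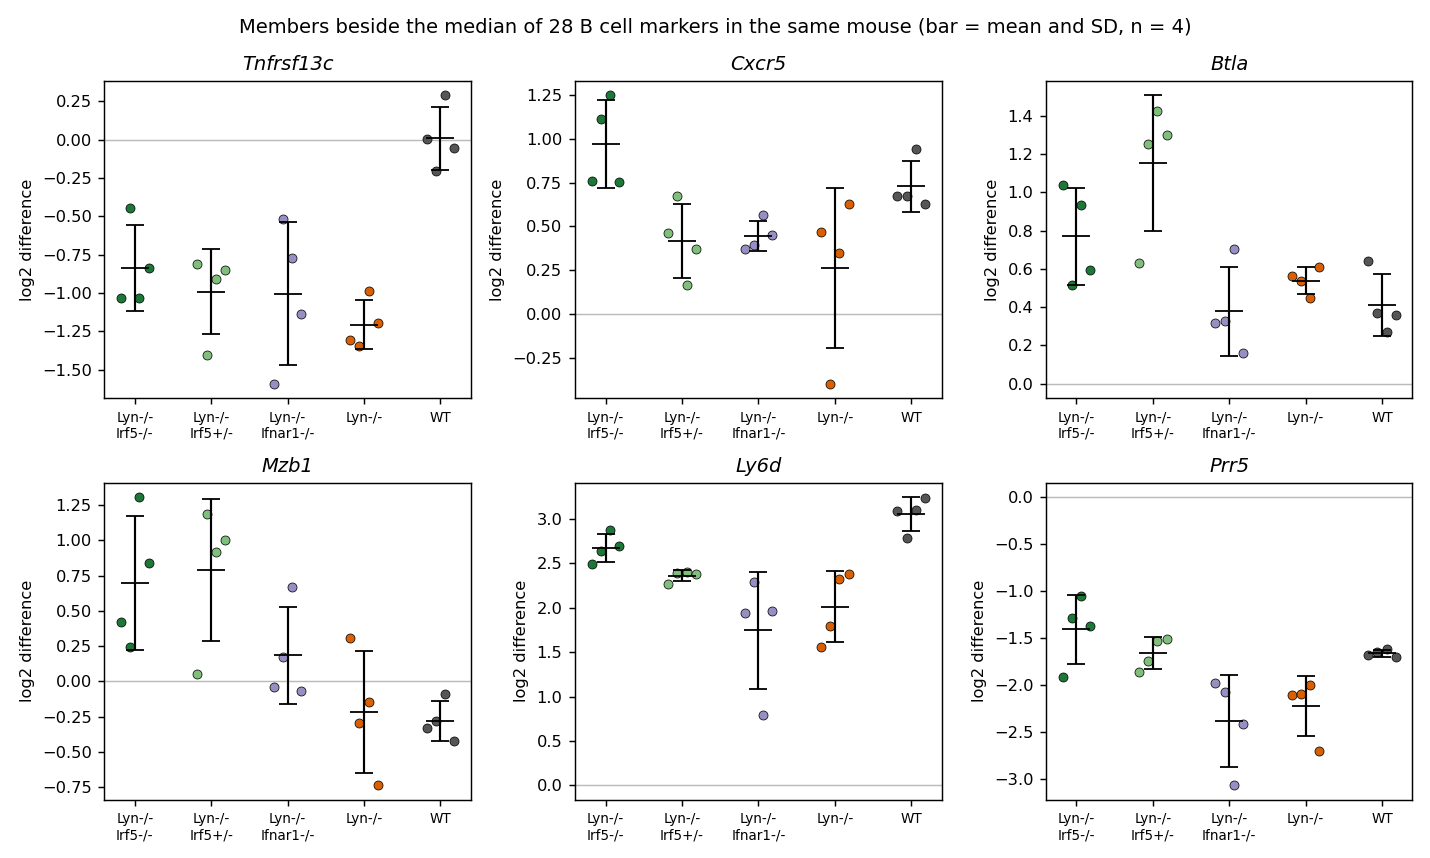
Distance of each gene from the median of 28 B cell markers in the same mouse (vertical axes, log2 units) for each mouse by genotype, with bars for the mean and SD of 4 mice. Tnfrsf13c is near 0 in WT mice only, and Mzb1 is above 0 in all 8 Irf5-deficient mice and below 0 in all 4 WT mice.

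The survival receptor and the secretory gene were also compared as a ratio within each mouse, which is free of library scaling. This pair was picked after the values were seen. Mzb1 over Tnfrsf13c in RPKM was 1.66 to 5.96 in Lyn-/-Irf5-/- mice, 1.91 to 7.21 in Lyn-/-Irf5+/- mice, 1.68 to 3.51 in Lyn-/-Ifnar1-/- mice and 1.58 to 3.95 in Lyn-/- mice, against 0.765 to 0.942 in WT mice. All 16 Lyn-deficient mice were above all 4 WT mice, and the 4 Lyn-deficient genotypes overlapped one another. The Tnfrsf13c counts behind the ratio were as low as 4 reads in 1 Lyn-/- and 1 Lyn-/-Ifnar1-/- mouse.

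**Figure D5:**
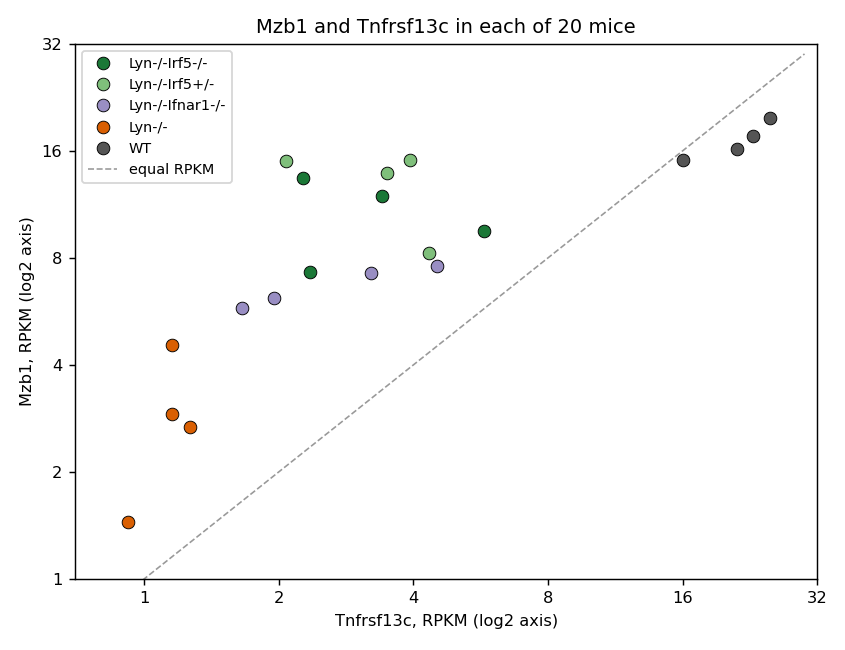
Mzb1 (vertical axis) against Tnfrsf13c (horizontal axis) in RPKM on log2 axes, 1 point a mouse, with a dashed line at equal RPKM. The 16 Lyn-deficient mice lie above the line (ratio 1.58 to 7.21) and the 4 WT mice just below it (0.765 to 0.942).

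Genes whose pattern over the 20 mice was most like each member were found by the root mean square difference of log2(RPKM + 0.5), each gene centred on its own mean. The nearest to Cxcr5 was Spib, a transcription factor of B cells (0.24), and Cd79a (0.25) and Blk (0.26) were among the 3 nearest to Prr5. Btla was nearest to H2-Ob, H2-Aa and Pou2af1 (0.24, 0.27 and 0.29), the first of which encodes a chain of a class II regulator of B cells. Mzb1 had no gene as near: H2-Ob was at 0.38, Btla at 0.40 and Pou2af1 at 0.44. Ly6d was nearest to Fcer2a, Blnk and Cd79a (0.36, 0.38 and 0.39).

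Tnfrsf13c was nearest to Scd1 (0.29), which encodes a fatty acid desaturase, then to Sdc4 (0.39) and H2-DMb2 (0.40). Scd1 was at 4.88 ± 1.67 RPKM in Lyn-/-Irf5-/-, 5.12 ± 0.380 in Lyn-/-Irf5+/-, 4.54 ± 1.42 in Lyn-/-Ifnar1-/- and 2.06 ± 0.633 in Lyn-/- mice, against 31.1 ± 3.91 RPKM in WT mice (SD, n = 4 each). Among the members themselves, Ly6d and Prr5 were nearest (0.39), and Mzb1 and Tnfrsf13c were the farthest apart (0.85). Genes with a step between WT and Lyn-deficient blood share that step in this measure, so a small value describes a like pattern over these genotypes only.

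In the lists of pathway genes and cell types that follow, the counts stand beside 5.36% of all genes called higher and 8.58% lower in Lyn-/-Irf5-/-, and 6.12% and 8.46% in Lyn-/-Irf5+/- against Lyn-/- blood, and 17.1% and 15.5% in Lyn-/- against WT blood. For Lyn-/-Ifnar1-/- against Lyn-/- blood these shares were 2.74% and 3.96%. At the same RPKM sum only 3 genes were called higher and 116 lower there. With libraries scaled to the same RPKM sum, 51 of 92 calls of named list genes were lost. Of those with values here, the calls of Map3k14, Relb, Itgal, Lair1, Bcl2, Cd22, Tnfrsf13b and, in Lyn-/-Irf5+/- blood, Pdia4 were among the lost. On the BAFF and APRIL axis of Tnfrsf13c, 15 of 17 listed genes were tested, and in Lyn-/-Irf5-/- against Lyn-/- blood 0 rose and 3 fell, with 1 up and 3 down in Lyn-/-Irf5+/- against Lyn-/- blood. The 3 were Bcl2l1, which encodes the survival protein BCL-XL and is abundant in erythroid cells, and Map3k14 and Relb of the alternative NF-kB pathway. The direction of Map3k14 and Relb changed with libraries scaled to the same sum outside hemoglobin genes, where Map3k14 stood at 0.033 and Relb at 0.047 in Lyn-/-Irf5-/- against Lyn-/- blood. Map3k14 was at 4.795 ± 0.269 RPKM in Lyn-/-Irf5-/- blood, against 7.60 ± 1.09 RPKM in Lyn-/- blood (mean ± SD, n = 4, limma adjusted p = 0.00377). Of this list 0 rose and 1 fell, again Map3k14, in Lyn-/-Ifnar1-/- against Lyn-/- blood. Bcl2, the survival gene that rose with 1 copy of Irf5, was at 5.83 ± 0.269 RPKM in Lyn-/-Irf5+/- blood, against 3.58 ± 0.696 RPKM in Lyn-/- blood (mean ± SD, n = 4, limma adjusted p = 0.00539). Tnfrsf13b, which encodes the related receptor TACI, fell in Lyn-/- against WT blood, at 3.70 ± 0.544 RPKM in Lyn-/- blood, against 8.96 ± 3.03 RPKM in WT blood (mean ± SD, n = 4, limma adjusted p = 0.0072).

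Of 14 tested genes of lymphocyte homing and egress, beside Cxcr5, 5 rose and 1 fell in Lyn-/-Irf5-/- and again in Lyn-/-Irf5+/- against Lyn-/- blood. Ccr7, a receptor of naive lymphocytes for lymph node chemokines, was at 42.1 ± 4.42 RPKM in Lyn-/-Irf5-/- blood, against 23.0 ± 4.76 RPKM in Lyn-/- blood (mean ± SD, n = 4, limma adjusted p = 0.00109). S1pr1, the receptor for exit from lymphoid organs, was at 25.6 ± 4.81 RPKM in Lyn-/-Irf5-/- blood, against 13.01 ± 0.293 RPKM in Lyn-/- blood (mean ± SD, n = 4, limma adjusted p = 0.00164). Itgal, an integrin chain, was the one that fell in both. Of the 14 genes 2 rose, Ccr7 and S1pr1, and 0 fell in Lyn-/-Ifnar1-/- against Lyn-/- blood as well. T cells carry Ccr7 and S1pr1 too. In Lyn-/- against WT blood 9 of the 14 fell and 2 rose.

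Among 16 tested genes of antibody secretion and protein folding in the endoplasmic reticulum, the setting of Mzb1, 4 rose and 2 fell in Lyn-/-Irf5-/- against Lyn-/- blood, and 1 rose and 2 fell in Lyn-/-Irf5+/- against Lyn-/- blood. The counts in Lyn-/-Ifnar1-/- against Lyn-/- blood were 1 up (Pdia4) and 2 down. Pdia4, a folding enzyme, was at 10.7 ± 0.859 RPKM in Lyn-/-Irf5-/- blood, against 4.95 ± 0.540 RPKM in Lyn-/- blood (mean ± SD, n = 4, limma adjusted p = 0.000575) and rose in Lyn-/-Irf5+/- mice as well (adjusted p = 0.00799 by limma). Irf4, a factor of plasma cell formation, was at 2.74 ± 0.642 RPKM in Lyn-/-Irf5-/- blood, against 1.12 ± 0.354 RPKM in Lyn-/- blood (mean ± SD, n = 4, limma adjusted p = 0.00831). Igj, the antibody joining chain, fell in Lyn-/- against WT blood, at 0.378 ± 0.121 RPKM in Lyn-/- blood, against 4.13 ± 1.36 RPKM in WT blood (mean ± SD, n = 4, limma adjusted p = 2.12e-06).

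Of 15 tested genes listed around Btla, its ligand and other inhibitory receptors, 3 rose and 1 fell in Lyn-/-Irf5-/- against Lyn-/- blood and 3 rose and 2 fell in Lyn-/-Irf5+/- against Lyn-/- blood. The counts in Lyn-/-Ifnar1-/- against Lyn-/- blood were 2 up (Cd5 and Cd22) and 1 down (Lair1). Cd22, an inhibitory receptor of B cells, was at 7.08 ± 0.936 RPKM in Lyn-/-Irf5+/- blood, against 3.08 ± 0.556 RPKM in Lyn-/- blood (mean ± SD, n = 4, limma adjusted p = 0.000732). Lair1, an inhibitory receptor that myeloid cells also carry, fell in Lyn-/-Irf5-/- mice, at 6.55 ± 1.41 RPKM in Lyn-/-Irf5-/- blood, against 12.6 ± 1.58 RPKM in Lyn-/- blood (mean ± SD, n = 4, limma adjusted p = 0.000916). Of 12 tested genes around mTOR complex 2, the setting of Prr5, 0 passed limma in either Irf5-deficient genotype against Lyn-/- blood, with medians of -0.04 and -0.06 in Lyn-/-Irf5-/- and Lyn-/-Irf5+/- mice. At an unadjusted p under 0.05 they were 4 and 2 genes in these comparisons. By limma-voom on the recovered reads 2 and 1 passed: Rictor, the subunit that defines the complex, at 0.68 in Lyn-/-Irf5-/- (voom adjusted p = 0.0345) and 0.73 in Lyn-/-Irf5+/- blood (voom adjusted p = 0.0373), and Foxo3, a factor that AKT restrains, at -1.06 in Lyn-/-Irf5-/- blood (voom adjusted p = 0.0275). By limma, 1 of the 12 rose and 0 fell in Lyn-/-Ifnar1-/- against Lyn-/- blood.

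Markers of other blood cells moved in the same comparisons. Of 18 T cell markers, 9 rose and 0 fell in Lyn-/-Irf5-/- and 10 rose and 0 fell in Lyn-/-Irf5+/- against Lyn-/- blood. Of these markers 8 rose and 0 fell in Lyn-/-Ifnar1-/- against Lyn-/- blood. Their summed level was 414 to 568 RPKM in Lyn-/-Irf5-/- and 479 to 595 in Lyn-/-Irf5+/- mice, against 269 to 405 in Lyn-/- and 394 to 514 RPKM in WT mice. Cxcr5 and Btla are carried by T cells as well as by B cells, and the part of T cells in their values was not tested.

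Plasma cells and plasmacytoid dendritic cells are other sources of Mzb1. Of 6 tested plasma cell markers 2 rose and 1 fell in Lyn-/-Irf5-/- and 0 rose and 1 fell in Lyn-/-Irf5+/- against Lyn-/- blood, and the sum of the 7 listed in the table was 216 to 361 RPKM in Lyn-/-Irf5-/- and 310 to 378 in Lyn-/-Irf5+/- mice, against 543 to 1586 in Lyn-/- mice and 338 to 544 RPKM in WT mice. Most of that sum was Fam46c, which erythroid cells also carry. Of 7 tested plasmacytoid dendritic cell markers 1 rose and 0 fell in both Irf5-deficient genotypes, and the sum of 8 was 154 to 180 RPKM in Lyn-/-Irf5-/- and 91.7 to 154 in Lyn-/-Irf5+/- mice, against 130 to 158 in Lyn-/- and 78.1 to 98.2 RPKM in WT mice. A large part of that sum in Lyn-/- and WT blood was Ly6c2, a gene also on the monocyte list. Its mean was 42.8 RPKM for the WT libraries, while the Lyn-/- libraries averaged 104 RPKM. Siglech, which defines plasmacytoid dendritic cells, had no row in the values used here and was not analysed. Only 7 of 15 listed plasma cell markers and 8 of 15 plasmacytoid dendritic cell markers were in the table. The part of either cell type in the Mzb1 values was not tested.

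Of 12 monocyte markers 0 rose and 8 fell in Lyn-/-Irf5-/- and 0 rose and 7 fell in Lyn-/-Irf5+/- against Lyn-/- blood, with sums of 2666 to 3109 and 2392 to 3282 RPKM, against 2668 to 3615 in Lyn-/- and 885 to 992 RPKM in WT mice. Most of these sums was Lyz2, with means of 2491, 2268, 2337 and 804 RPKM in these 4 genotypes. Of 13 neutrophil markers 3 fell in each: Ltf, Ngp and Camp. Their levels varied widely in Lyn-/- blood, at 10.1 ± 10.8, 89.0 ± 97.2 and 23.1 ± 24.1 RPKM (mean ± SD, n = 4). The neutrophil sum was 2428 to 3259 RPKM in Lyn-/-Irf5-/- and 1284 to 4539 in Lyn-/-Irf5+/- mice. It was 1445 to 8190 in Lyn-/- and 578 to 950 RPKM in WT mice. Of 14 erythroid markers 11 fell in Lyn-/-Irf5-/- and 8 in Lyn-/-Irf5+/- mice, and their sum was 19180 to 32640 and 30650 to 41890 RPKM in these genotypes, against 38810 to 94040 in Lyn-/- and 27940 to 48690 RPKM in WT mice. No marker of these lists that was in the table was at 0 in all mice of a genotype. Over all lists 174 of 202 entries were in the table, so a marker without signal could be missing from this count. RPKM values are shares of a library, and the part of these other cells in the members' values was not tested.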

How the data were processed

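Peripheral blood RNA of 20 mice was sequenced, 4 for each of 5 genotypes, taken from the labels. The members and the gene lists were chosen with earlier results of these data known. The authors aligned reads to mm10 with STAR, counted them with featureCounts and computed RPKM with edgeR after TMM scaling, and deposited these RPKM values, 1 column per mouse, for 9228 genes. The rule that chose the listed genes, and whether counting used strand, are not given in the sources used here.

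RPKM are not counts. After 0.5 was added and the logarithm to base 2 taken, genotypes were compared over 8696 genes (those reaching 1 RPKM in 4 or more libraries) with limma 3.58.1 in R 4.3.3 (variance trend, all 20 libraries in 1 model, two-sided, Benjamini-Hochberg over all genes, threshold 0.05). A fold on this scale understates the change of low genes. P-values set a difference against the spread between mice within genotypes, pooled over all 20 libraries. Whole reads were recovered from the RPKM steps (9227 of 9228 genes, tolerance 0.05 reads) and used for depth and for limma-voom, an alternative added after seeing the data. Of 202 list entries 174 matched the table, some through RefSeq synonyms. The named genes are the 6 members, Lyn, Irf5 and Ifnar1, the 3 genes most like each member and up to 4 called genes with the strongest statistic per list and comparison. Of these the text gives a part, and 1 gene among them is not reported here. Rictor and Foxo3 were added after their values were seen. The model was tested on simulated data. Sequences are from RefSeq (GRCm38.p6), and Python 3.11.15, pandas 2.3.3 and matplotlib 3.10.9 served for tables and plots. Alternatives covered the pseudocount, filter, scaling, variance model, replicate block, libraries in the model and leaving out each library.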

Additional observations from a re-analysis of the deposited data

Results flagged for a closer look

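Among the 30 sets of 4 mice (6 genes in 5 genotypes), 3 had 1 mouse far from the other 3, where chance marks about 1 in 20 sets. Mzb1 was at 8.27 RPKM in Lyn-/-Irf5+/- mouse 1, on 29 reads, against 13.9 to 15.1 RPKM in the other 3 mice, and that mouse alone sits among the Lyn-/-Irf5-/- values. Prr5 was at 0 RPKM in Lyn-/-Ifnar1-/- mouse 3, the shallowest library, where 3 reads would have been worth 1.52 RPKM, and at 0 RPKM in Lyn-/- mouse 4, where 3 reads would have been worth 0.714 RPKM.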

How the results depend on the processing

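The member calls kept their side of the threshold under every alternative in which a member was tested: 6 of 6 lower in Lyn-/-Ifnar1-/- against WT and 0 of 6 between Lyn-/-Irf5-/- and Lyn-/-Irf5+/- blood, except that 4 members were left to test (4 and 0 called) with at least 1 RPKM asked in all 20 libraries, which dropped Tnfrsf13c and Prr5. The counts were 6 and 0 also on leaving out each of the 20 libraries (6 to 6 and 0 to 0). Of 510 described differences recomputed, 0 changed sign and 44 moved by over 1 SD. Scaling libraries to the same RPKM sum put the median of all genes at 0.54 in Lyn-/-Irf5-/- and -0.20 in Lyn-/-Irf5+/- against Lyn-/- blood, at -0.25 in Lyn-/- against WT blood and at 0.72 between the Irf5-deficient genotypes. There the members ran from 1.59 to 2.25 in Lyn-/-Irf5-/- and from 0.95 to 1.78 in Lyn-/-Irf5+/- against Lyn-/- blood, and all 6 differences of Lyn-/-Irf5-/- from Lyn-/-Irf5+/- were positive (0.18 to 1.11). Calls over all genes were then 351 higher and 261 lower in Lyn-/-Irf5-/- (466 and 746 as deposited) and 15 and 442 in Lyn-/-Irf5+/- (532 and 736) against Lyn-/- blood, 3 and 116 in Lyn-/-Ifnar1-/- against Lyn-/- (238 and 344), 512 and 325 in Lyn-/- against WT (1483 and 1346), 28 and 203 in Lyn-/-Ifnar1-/- against WT (1014 and 836) and 3 and 0 between the Irf5-deficient genotypes. At the same sum outside hemoglobin genes they were 2814 and 346 in Lyn-/-Irf5-/- against Lyn-/- and 515 and 2432 in Lyn-/- against WT blood.

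The B cell markers called were 2 of 28 in place of 19 in Lyn-/-Irf5+/- against Lyn-/- blood at the same RPKM sum. In Lyn-/-Ifnar1-/- against Lyn-/- blood, in place of 9, they were 1 at the same RPKM sum, 0 at the same sum outside hemoglobin genes, 1 with the 2 genotypes fitted alone, 5 to 20 on leaving out 1 library and 17 without mice 3 and 4. The cause was not tested. Leaving out 1 library gave 14 to 23 and 18 to 23 markers in Lyn-/-Irf5-/- and Lyn-/-Irf5+/- against Lyn-/-, 24 to 27 in Lyn-/- against WT and 24 to 26 in Lyn-/-Ifnar1-/- against WT blood. Of 92 calls of named list genes, 51 were lost at the same RPKM sum, 31 at the same sum outside hemoglobin genes and 15 with the 2 genotypes fitted alone. At the same sum outside hemoglobin genes, Map3k14 (0.033) and Relb (0.047) in Lyn-/-Irf5-/- against Lyn-/- and Map3k14 (-0.035) in Lyn-/- against WT blood had the other sign.

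Replicate numbers showed no general pairing of mice: 11 of 40 same-numbered pairs correlated above 0.1 (median 0.01, range -0.241 to 0.499). The highest was between the mice numbered 1 of Lyn-/- and Lyn-/-Ifnar1-/-. With a replicate block the members called stayed at 6 and 0, and the markers at 19, 19, 10, 27 and 26 in the 5 comparisons. Low reads limit Prr5 in Lyn-/- blood, whose difference from Lyn-/-Irf5-/- ran from 1.21 to 2.57 with the pseudocount.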
